A study of Homo sapiens with 8 samples.

Results

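Superoxide dismutases, catalase and peroxiredoxins are the enzymes that remove superoxide and peroxides. The 10 genes described here were chosen by name from a table of 61806 genes. They are SOD1, SOD2, CAT, PRDX1, PRDX2, PRDX3, PRDX4, PRDX5, PRDX6 and TXN2, the mitochondrial thioredoxin that reduces peroxiredoxins in that compartment. Each was found once in the table, and each passed the filter on low counts.

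mRNA was sequenced from N/TERT-1 cells, an immortalized line of human epidermal keratinocytes, with wild-type genotype in all libraries. In 4 libraries the cells had received ethanol, the solvent, and in 4 libraries oligomycin and antimycin A (O/A), which inhibit the mitochondrial ATP synthase and respiratory complex III, for 4 hours. Both groups were grown in keratinocyte serum-free medium, the replicates were independent experiments, and the single line sets the limit of the model. The comparison was made to follow transcripts of cholesterol synthesis and uptake after mitochondrial damage, and these enzymes were measured in the same libraries.

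Libraries held 17210404 to 20999927 counts in the ethanol group and 17689760 to 19263046 in the O/A group. The libraries of 1 group resembled each other more than those of the other, the chi-square over its degrees of freedom being 1.72 to 5.48 for pairs within a group and 49.9 to 60.3 for pairs across groups. All 6 keratinocyte markers (KRT5, KRT14, TP63, ITGA6, COL17A1 and DSG3) were detected, and their summed level was 2765 to 3028 FPKM in ethanol and 2437 to 2594 in O/A, where FPKM is the count scaled by exon length and library total. The summed markers of fibroblasts (2.42 to 2.95 FPKM over both groups), immune cells (0.46 to 0.88), melanocytes (0.27 to 0.66) and endothelial cells (0.02 to 0.06) were near 0, and the melanocyte genes MLANA and TYR had no count. The keratinocyte sum, which rests mostly on KRT5 and KRT14, was lower and the immune sum, carried by CD68, higher in every O/A library than in every ethanol library. The keratinocyte markers did not move one way, since KRT5 was at 1397 to 1495 FPKM in ethanol and 1094 to 1177 in O/A, while DSG3 was at 50.5 to 54.0 and 100.01 to 104.9, and ITGA6 at 143.01 to 149 and 154 to 158. The part of these markers in the results was not tested. In bulk RNA in general, fewer cells of a type and less RNA per cell cannot be told apart.

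Superoxide arises when electrons leak from the respiratory chain, and superoxide dismutases turn it into hydrogen peroxide. SOD1 does this in the cytosol and the intermembrane space, and SOD2, which carries manganese, in the mitochondrial matrix. Catalase breaks down hydrogen peroxide in peroxisomes, whereas peroxiredoxins reduce peroxides with a reactive cysteine and are recycled, in most cases, by thioredoxin and thioredoxin reductase.

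The stretches before the transcription start of 3 members are shown as examples of unlike results among the members with a window. SOD2 had the largest log2(FC) of the members and CAT the next, and PRDX3, a mitochondrial peroxiredoxin, had a value near 0. Each is 250 bases of the RefSeq sequence of GRCh38.p14, written 5′ to 3′ on the strand of the gene and ending at the base before the start. That of SOD2 is chr6:159693242-159693491 on the minus strand and lies within the annotated span of the gene, which has starts farther upstream. That of CAT is chr11:34438684-34438933 on the plus strand, and that of PRDX3 is chr10:119178813-119179062 on the minus strand. Capitals mark the CCAAT box, the letters CCAAT on either strand, read as ATTGG on the strand shown when it lies on the other.
SOD2: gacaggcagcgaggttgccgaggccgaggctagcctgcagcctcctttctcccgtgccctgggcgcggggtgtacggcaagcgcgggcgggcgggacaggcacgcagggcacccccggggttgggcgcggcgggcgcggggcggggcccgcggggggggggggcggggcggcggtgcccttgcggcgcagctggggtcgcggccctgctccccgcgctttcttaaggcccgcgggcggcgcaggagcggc
CAT: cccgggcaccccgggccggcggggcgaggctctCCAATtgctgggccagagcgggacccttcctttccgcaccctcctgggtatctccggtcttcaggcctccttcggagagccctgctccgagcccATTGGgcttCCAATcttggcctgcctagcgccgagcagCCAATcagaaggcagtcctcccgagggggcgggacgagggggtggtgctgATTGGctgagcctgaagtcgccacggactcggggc
PRDX3: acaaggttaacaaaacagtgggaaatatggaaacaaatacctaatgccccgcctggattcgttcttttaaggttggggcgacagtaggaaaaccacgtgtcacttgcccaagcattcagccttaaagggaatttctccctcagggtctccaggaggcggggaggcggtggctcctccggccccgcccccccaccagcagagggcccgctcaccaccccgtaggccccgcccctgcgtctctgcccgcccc

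The letters CCAAT occur 5 times in the CAT window, at 217, 123, 114, 85 and 35 bases before the start. At least 1 match was found in 32.0% of all 35116 windows of the same length, and at least 5 in 0.319%. The SOD2 window held no match and had a GC content of 80.8%, a value that 2.63% of all windows reached, against a median of 58.0%. The GC content was 68.8% for CAT and 60.4% for PRDX3, whose window held no match either. RefSeq gave 4 starts for SOD2, and the windows of 2 of them held the letters CCAAT, 1 and 3 times. Other motifs were searched on both strands without a match in any of the 10 windows of members. They were the antioxidant response element TGACNNNGC (in 10.9% of all windows), the FOXO motif GTAAACA (2.98%) and the ATF4 element TGATGNAAT (0.888%). Windows were found for 6 members, and SOD1, PRDX1, PRDX6 and TXN2 had none. A match describes the letters of the window only, as does its absence.

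Of the 10 members, only SOD2 passed both thresholds, which were an adjusted p no greater than 0.05 by the quasi-likelihood test of edgeR and an absolute log2(FC) above 0.25. Among all 14893 genes tested, 34.7% passed them, 15.8% higher and 18.9% lower in O/A. Without the threshold on log2(FC), the adjusted p was at most 0.05 for 7 members, 6 with higher values in O/A (SOD1, SOD2, CAT, PRDX1, PRDX5 and PRDX6) and 1 with lower values (TXN2), where 53.7% of all genes met that limit, 26% with higher and 27.7% with lower values. For the same 7 members every O/A library lay on one side of every ethanol library, which held for 47.6% of all genes tested, 22.8% with O/A higher and 24.8% with O/A lower. The median log2(FC) of the members was 0.098, beside -0.0004 over all genes, and the median of the absolute log2(FC) was 0.098 beside 0.20. The median log2(FC) of the members depended on the scaling. It was 0.030 beside -0.0031 over all genes under quantile normalization, and 0.052 beside -0.043 on the log2(FPKM + 0.1) scale. For 8 members, all except SOD2 and CAT, the 95% interval of the log2(FC) lay within 0.25 of 0 on either side, as it did for 29.4% of all genes tested. The width of an interval also depends on the number of reads. Members had 648 to 8374 counts per library, while the filter asked for 10 counts in 4 libraries, so these shares are not matched for depth.

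**Figure D1:**
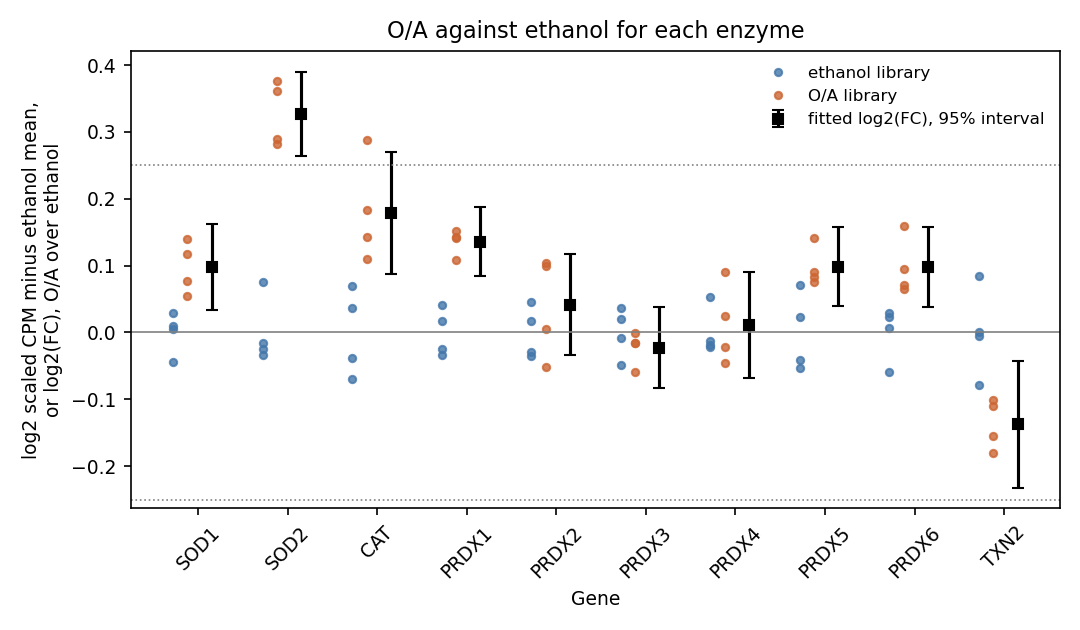
The plot of differences by gene gives, for each of the 10 members, the log2 scaled CPM of the 4 ethanol and 4 O/A libraries minus the ethanol mean (circles) and the fitted log2(FC) of O/A over ethanol with its 95% interval (squares and bars). The dotted lines mark a log2(FC) of 0.25 in either direction, and the interval of SOD2, 0.26 to 0.39, is the only one to lie beyond a line.

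SOD2, the dismutase of the mitochondrial matrix, was the only member past both thresholds. Its level in CPM, counts scaled to a common library total with TMM factors (scaled CPM), was 129.9, 130.7, 140.2 and 131.5 in ethanol replicates 1 to 4 and 170.8, 172.7, 161.8 and 162.6 in O/A replicates 1 to 4. All O/A libraries lay above all ethanol libraries, and ethanol replicate 3 stood above the other 3 of its group. The log2(FC) was 0.33, with a standard error of 0.031 and an adjusted p of 5.53e-13 (edgeR), which is a fold of 1.25. Without ethanol replicate 3 it was 0.35. SOD2 passed both thresholds with each library left out in turn and under each of 7 other settings, the lowest value being 0.2516 on the log2(FPKM + 1) scale. In an exact two-sided permutation test of 4 libraries against 4 its p was 0.0286, the smallest such a test can give.

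SOD2 (ENSG00000112096) spans chr6:159669069-159762529 on the minus strand of GRCh38, and exons of WTAP, ACAT2 and SOD2-OT1 overlap its exons by 437, 133 and 939 bases. WTAP and ACAT2 lie on the other strand, and the setting for strand in the counting is not given in the sources used here, so reads in the overlaps cannot be told apart. The log2(FC) of WTAP, part of the complex that methylates adenosine in mRNA, was 0.11 (adjusted p = 0.00570, edgeR), and that of ACAT2, a cytosolic thiolase, was -0.026 (adjusted p = 0.450). SOD2-OT1, a transcript on the same strand with 7 to 32 counts per library, rose with a log2(FC) of 1.12 (adjusted p = 0.00225). The value for SOD2-OT1 was 0.65 under quantile normalization and 0.32 on the log2(FPKM + 1) scale, both past the thresholds. The counts of SOD2-OT1 amounted to 0.549% of those of SOD2, those of WTAP to 69.2% and those of ACAT2 to 187%.

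SOD1 (chr21:31659666-31668931, plus strand), the dismutase of the cytosol, had 107.1 to 112.6 scaled CPM in ethanol and 114.6 to 121.6 in O/A. These ranges did not overlap, and the log2(FC) was 0.098 with a 95% interval of 0.034 to 0.16 (adjusted p = 0.00823, edgeR), within the threshold. The counts of SOD2 relative to SOD1 were compared inside each library, since such a ratio does not depend on the scaling between libraries. The log2 ratio was 0.23, 0.22, 0.34 and 0.30 in ethanol replicates 1 to 4 and 0.55, 0.51, 0.44 and 0.50 in O/A replicates 1 to 4. The ratio was higher in every O/A library, with a mean log2 difference of 0.23 (ethanol 0.27 ± 0.056, O/A 0.50 ± 0.049, SD, n = 4 each, exact permutation p = 0.0286, adjusted over 6 ratios 0.0429). Of the other genes tied to SOD1, the extracellular dismutase SOD3 had no count in any library, and CCS, the chaperone that delivers copper to SOD1, rose by 0.28 ± 0.077 on the log2 scale (standard error, adjusted p = 0.00156, edgeR). CCS was within the threshold on both FPKM scales (0.24 and 0.21) and, at 0.23, without ethanol replicate 1.

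CAT (chr11:34438934-34472060, plus strand), the catalase of peroxisomes, had 44.93, 43.97, 47.33 and 48.42 scaled CPM in ethanol and 56.31, 52.37, 49.76 and 50.92 in O/A replicates 1 to 4. The O/A values were all above the ethanol values, but the gap between the groups, from 48.42 to 49.76, was smaller than the spread within either. Its log2(FC) of 0.18 had a standard error of 0.045 and an interval of 0.088 to 0.27, which reached past the threshold although the estimate did not (adjusted p = 0.000722, edgeR). Among 9 other peroxisomal genes, 0 rose and 1 fell, where 15.8% of all genes tested rose and 18.9% fell. The 1 that fell was PEX14, a part of the import machinery, with a log2(FC) of -0.32 (adjusted p = 9.34e-05, edgeR). The highest value of that list was 0.12 for PEX13 and its median was -0.088.

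Per length of exon, the peroxiredoxins PRDX1 and PRDX5 had the highest levels of the 10 genes in FPKM. PRDX1, a cytosolic form, was at 242 ± 5.38 FPKM in ethanol (mean ± SD, n = 4) and PRDX5, found in mitochondria, peroxisomes and cytosol, at 226 ± 10.004, and the libraries of this pair overlapped. There followed PRDX6 (72.5 ± 2.16 FPKM), SOD1 (56.7 ± 1.28), PRDX3 (43.8 ± 1.20), PRDX2 (40.2 ± 1.17), PRDX4 (34.9 ± 0.830), TXN2 (26.0 ± 1.10), CAT (13.1 ± 0.605) and SOD2 (7.44 ± 0.297). No other neighbours in that order overlapped in ethanol. In O/A the order was the same, with 258 ± 3.51 FPKM for PRDX1 and 9.05 ± 0.321 for SOD2, and the neighbours that overlapped were PRDX3 (41.8 ± 0.784) and PRDX2 (40.0 ± 2.05). The place of SOD2 depends on the length by which its counts are divided, 18144 bases of exon in the table, while its 11 coding transcripts in GENCODE v44 are 507 to 14167 bases long. When the canonical transcript was used for every member, SOD1 and PRDX6 exchanged places and SOD2 remained lowest. The canonical transcript of SOD2 is its longest coding form, at 14167 bases, so its place with a shorter form was not tested. In scaled CPM, which is not divided by length, SOD2 had a mean of 133 in ethanol, between PRDX3 (146) and SOD1 (110). Per canonical transcript, PRDX1 was at 431 counts per kilobase scaled to library total and PRDX5 at 226 in ethanol, so the near tie of that pair depends on the length used as well.

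The peroxiredoxins of the cytosol were PRDX1, PRDX2 and PRDX6. PRDX1 had 413.0, 406.5, 394.5 and 392.3 scaled CPM in ethanol and 445.9, 442.6, 443.3 and 433.0 in O/A replicates 1 to 4. The groups did not overlap, and the log2(FC) was 0.14 with an interval of 0.085 to 0.19 (adjusted p = 1.01e-05, edgeR), within the threshold. Under quantile normalization it was 0.030 (adjusted p = 0.282, limma). PRDX1 (chr1:45510914-45542732, minus strand) shares 501 bases of exon with MMACHC, a gene of vitamin B12 processing on the other strand. MMACHC fell with a log2(FC) of -1.11 (adjusted p = 1.06e-13), and its counts amounted to 2.21% of those of PRDX1. The strand setting is not given, so reads in the overlap cannot be told apart.

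PRDX6 (chr1:173477330-173488815, plus strand), which unlike the others has a single catalytic cysteine and is reduced by glutathione, had 158.4 to 168.3 scaled CPM in ethanol and 172.7 to 184.3 in O/A. Those ranges did not overlap either, with a log2(FC) of 0.098 (interval 0.039 to 0.16, adjusted p = 0.00432, edgeR). PRDX2 (chr19:12796820-12801800, minus strand), abundant in red blood cells, had 81.5, 78.9, 83.1 and 78.6 scaled CPM in ethanol and 86.3, 80.8, 86.5 and 77.7 in O/A. The lowest of all 8 values, in O/A replicate 4, and the highest, in O/A replicate 3, belonged to the same group. The log2(FC) of PRDX2 was 0.042 (interval -0.034 to 0.12, adjusted p = 0.368), and it turned to -0.0060 on the log2(FPKM + 0.1) scale. ENSG00000267062, on the other strand, shares 247 bases of exon with PRDX2, and its counts amounted to 0.922% of those of PRDX2. HOOK2, on the same strand, overlaps the span of PRDX2 with 0 shared bases of exon. Its log2(FC) was 0.16 (adjusted p = 0.0323, edgeR), and its counts amounted to 28.9% of those of PRDX2.

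In mitochondria, PRDX3 is reduced by TXN2, which is itself reduced by TXNRD2. PRDX3 (chr10:119167720-119178812, minus strand) had 148.0, 145.1, 149.6 and 141.1 scaled CPM in ethanol and 144.4, 144.4, 140.0 and 145.9 in O/A replicates 1 to 4. These groups overlapped, and the log2(FC) was -0.023 with an interval of -0.083 to 0.038 (adjusted p = 0.554, edgeR). Under quantile normalization PRDX3 was at -0.084 (adjusted p = 0.0157, limma). TXN2 (chr22:36467046-36481640, minus strand) had 44.8, 42.1, 40.0 and 42.3 scaled CPM in ethanol and 37.3, 37.9, 39.4 and 39.1 in O/A. Every O/A value of TXN2 was below every ethanol value, the nearest being 39.4 and 40.0, and its log2(FC) was -0.14 (interval -0.23 to -0.043, adjusted p = 0.0116), within the threshold. Without ethanol replicate 1 the adjusted p of TXN2 was 0.0713. TXNRD2 was at -0.15 (adjusted p = 0.0684).

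PRDX5 (chr11:64318121-64321811, plus strand), the form with the widest distribution in the cell, had 184.5 to 201.1 scaled CPM in ethanol and 201.9 to 211.3 in O/A. The highest ethanol library, replicate 3, came within 1 scaled CPM of the lowest O/A library, and the log2(FC) was 0.098 (interval 0.039 to 0.16, adjusted p = 0.00395, edgeR). For SOD1, PRDX5 and PRDX6 the adjusted p was above 0.05 on both FPKM scales and under quantile normalization, where their log2(FC) lay between 0.030 and 0.056. PRDX4 (chrX:23664262-23686397, plus strand), the peroxiredoxin of the endoplasmic reticulum, had 62.9 to 66.2 scaled CPM in ethanol and 61.9 to 68.0 in O/A. The ethanol range of PRDX4 lay within the O/A range, with a log2(FC) of 0.011 (interval -0.069 to 0.091, adjusted p = 0.837), which turned to -0.033 on the log2(FPKM + 0.1) scale.

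Inside each library, the counts of PRDX3 were set against those of PRDX1, the mitochondrial form against the cytosolic one. The log2 ratio was -1.48, -1.49, -1.40 and -1.47 in ethanol replicates 1 to 4 and -1.63, -1.62, -1.66 and -1.57 in O/A replicates 1 to 4. It was lower in every O/A library, by -0.16 on average (ethanol -1.46 ± 0.041, O/A -1.62 ± 0.038, SD, n = 4 each, exact permutation p = 0.0286, adjusted over 6 ratios 0.0429). PRDX4 relative to PRDX1 was lower as well, by -0.12 with no overlap (adjusted exact p = 0.0429). The groups of that ratio nearly met, at -2.7114 in ethanol replicate 1 and -2.713 in O/A replicate 1. PRDX2 relative to PRDX1 was lower by -0.097 with overlap (adjusted exact p = 0.0686). These ratios share PRDX1, so they are not independent of each other, and a ratio shows unequal values without telling which gene differed.

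The pair of thioredoxin reductases gave the widest difference of the 6 ratios. TXNRD1, the cytosolic reductase, had 246 to 260 scaled CPM in ethanol and 476 to 505 in O/A and rose by 0.96 ± 0.027 on the log2 scale (standard error, adjusted p = 2.69e-34, edgeR). TXNRD2 relative to TXNRD1 was 46.7% of its ethanol value in O/A, with a mean log2 difference of -1.10 and no overlap (adjusted exact p = 0.0429). The cytosolic thioredoxin TXN had a log2(FC) of 0.035 (adjusted p = 0.348), and it turned to -0.034 under quantile normalization. TXN2 relative to TXN differed by -0.17 with overlap between the groups (adjusted exact p = 0.0857). The reductase of the cytosolic system rose, while neither thioredoxin nor TXNRD2 passed both thresholds.

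Related genes outside the 10 members comprised 52 genes of glutathione peroxidases, thioredoxin, glutaredoxin and repair proteins, NADPH supply, oxidant sources, peroxisomes, and SOD3 with CCS. Of these, 43 were tested, 10 rose and 3 fell, where 15.8% of all genes tested rose and 18.9% fell, and their median log2(FC) was 0.077 beside -0.0004 over all genes. The largest values were in the thioredoxin, glutaredoxin and repair list, in which 6 of 17 genes rose and 2 fell, to be read against the same 15.8% and 18.9% of all genes, with a median of 0.10. SESN2, a stress-induced inhibitor of mTORC1 signalling, had 32.9 to 37.8 scaled CPM in ethanol and rose to 178 to 194 in O/A, and its log2(FC) was 2.43 ± 0.039 (SE, adjusted p = 9.39e-44, edgeR). TXNIP, which binds and inhibits thioredoxin, had 172 to 186 scaled CPM in ethanol and 841 to 914 in O/A and rose with a log2(FC) of 2.28. GLRX, the cytosolic glutaredoxin, rose with 1.76 and SESN3 with 0.76.

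SRXN1, sulfiredoxin, restores peroxiredoxins whose cysteine has been overoxidized. It rose by 0.43 ± 0.14 on the log2 scale (standard error, adjusted p = 0.00632, edgeR), but at 3.38 to 4.63 scaled CPM in ethanol and 4.14 to 6.38 in O/A its groups overlapped. Without O/A replicate 1 its log2(FC) was 0.33 with an adjusted p of 0.0511, and on the log2(FPKM + 1) scale it was 0.24, within the threshold. In the opposite direction, SESN1 fell with a log2(FC) of -0.46 and NXN, nucleoredoxin, with -0.38.

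Among genes of the glutathione peroxidase family, 1 of 4 tested genes rose, beside 15.8% of all genes tested. This was GPX8, of the endoplasmic reticulum, with 44.5 to 46.0 scaled CPM in ethanol, 77.7 to 82.1 in O/A and an increase of 0.81 ± 0.040 on the log2 scale (SE, adjusted p = 1.04e-23, edgeR). The lowest value of the list was 0.10, that of GPX1. None of the 6 tested genes that supply NADPH passed both thresholds, with ME1 highest at 0.20 and PGD lowest at -0.085. Of 6 tested oxidant sources, ERO1B (0.74) and P4HB (0.30), which form disulfide bonds in the endoplasmic reticulum, rose, and DUOX1 was lowest at -0.13. Among all genes tested, 15.8% rose. The level of ERO1B was low, at 4.00 to 4.84 scaled CPM in ethanol and 6.90 to 7.78 in O/A. ERO1A, of the same list, had 382 to 399 scaled CPM in ethanol and 409 to 428 in O/A. Its log2(FC) of 0.10 was within the threshold. P4HB was within the threshold on the log2(FPKM + 1) scale (0.2464) and under quantile normalization (0.16), and ERO1B on the log2(FPKM + 1) scale (0.19).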

How the data were processed

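The 8 mRNA libraries of N/TERT-1 cells, 4 with ethanol and 4 with O/A, were grouped by the sample labels. The authors used HISAT2 2.0.1 to align read pairs to GRCh38.p13 and made the deposited counts per Ensembl gene with HTSeq 0.6.1. The Ensembl release and the strand setting are not given in the sources used here. The authors also deposited FPKM values, each within 0.005 of the count divided by exonic size and library total. A deposited table of the authors' DESeq2 comparison holds a mean normalized count, a fold change, its log2 value and standard error, a Wald statistic and p-values, and was not used. Symbols absent from the count table were filled by gene ID from a GENCODE table. The gene ID of SOD2 in the table differs from that in GENCODE v44, which gives another ID with the same start and end.

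Counts were tested with edgeR 4.0.16 in R 4.3.3 (TMM scaling, robust quasi-likelihood test, Benjamini-Hochberg adjustment over all genes tested). The filter kept 14893 of 61806 genes, those that reached 10 counts in 4 or more libraries. A gene was called at an adjusted p of at most 0.05 and an absolute log2(FC) above 0.25. The words rose and fell are used for called genes. Members had 648 to 8374 counts per library. Ratios were taken on counts + 0.5 and compared by exact two-sided permutation tests. The edgeR test was tested on simulated data. Named genes are the 10 members, the called and the extreme genes of each related list, ERO1A, genes used in a ratio, and some of the genes that overlap a member. The members and lists were chosen with earlier results of these data known, and some genes are not reported here.

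Alternatives were DESeq2 1.42.0, median-ratio scaling, no filter, limma 3.58.1 on log2(FPKM + 0.1) and log2(FPKM + 1), the replicate number as a block, other fold thresholds and each library left out. Quantile normalization and the canonical transcript length were added after the data were seen. Promoter windows come from RefSeq GRCh38.p14, 10 windows for 6 members.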

Additional observations from a re-analysis of the deposited data

Results flagged for a closer look

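Of 82 groups of 4 libraries, 5 had 1 library far from the other 3, where chance gives about 1 in 20, or 4.1. SOD2 was at 140.2 scaled CPM in ethanol replicate 3 and at 129.9 to 131.5 in the other ethanol libraries. In ethanol replicate 4, PRDX4 was at 66.19 scaled CPM, beside 62.88 to 63.26 in the others. GPX1 was at 185.6 scaled CPM in O/A replicate 2 and at 202.4 to 204.3 in the other O/A libraries. WTAP, which overlaps SOD2, was at 103.6 scaled CPM in ethanol replicate 2, beside 98.02 to 98.58. The log2 ratio of PRDX3 to PRDX1 was -1.3984 in ethanol replicate 3 and between -1.4856 and -1.4747 in the other ethanol libraries.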

How the results depend on the processing

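The log2(FC) of PRDX2 turned to -0.006 on the log2(FPKM + 0.1) scale and to -0.0059 on log2(FPKM + 1). PRDX4 turned to -0.033 and -0.0322 on those scales, to -0.0176 under quantile normalization and to -0.0154 without O/A replicate 1. With 1 library left out its range was -0.0154 to 0.0389. TXN turned to -0.0103 and -0.0102 on the FPKM scales and to -0.0338 under quantile normalization. None of these 3 genes had passed the test, and the cause was not tested.

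With no fold threshold, 3868 of the 14893 genes tested were higher and 4131 lower. Of the members, 6 were higher and 1 lower, and of the related genes, 18 were higher and 8 lower. With an absolute log2(FC) above 1, 382 of all genes were higher and 415 lower, 0 members were higher, and 3 related genes were higher and 0 lower. On log2(FPKM + 1), 1514 of all genes were higher and 2409 lower, and 6 related genes were higher and 3 lower. The first 2 settings change only the threshold. The last changes the test, the scaling and the pseudocount together, and the cause was not tested.

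With 1 library left out, between 2264 and 2386 of all genes were higher and 2684 to 2770 lower, 1 member was higher, and 9 to 11 related genes were higher. The ratios with 1 library left out are values only, since 3 libraries against 4 cannot reach an exact p below 0.05714. The replicate number was not taken as a pairing, because deviations of same-numbered libraries correlated at 0.0811, 0.0008, -0.0481 and 0.1452. The fit with the replicate number as a block gave 0.327 for SOD2 and changed no member's call. Between 17210404 and 20999927 counts per library leave genes with few reads, such as SRXN1 and SOD2-OT1, imprecise.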
